A study of Homo sapiens with 16 samples.

Results

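The enzymes that make nucleotides, and the folate and serine reactions that feed them with carbon, were followed here as 34 named genes out of 35606 in the expression table. ADSS is listed as ADSS2 in GENCODE. The genes were chosen by name from textbook pathways, with earlier results of these data known. They were 9 of serine synthesis and the folate cycle, 12 of purine synthesis, 6 of pyrimidine synthesis and 7 that make or salvage deoxynucleotides for DNA. Positions of genes are from GENCODE 44 on GRCh38. All 34 were found in the table, and all 34 passed the filter on low values in each of the 4 cell lines. In both multiple myeloma lines nearly the whole set was lower after AU-15330. In NCI-H929 31 of 34 genes were lower (91.2%, against 37.6% of all genes tested), and in MM1.S 32 of 34 (94.1% against 40.2%). In both small-cell lung cancer lines the set was split. NCI-H526 had 8 lower (23.5%, against 29.8% of all genes tested) and 7 higher (20.6% against 29.0%). NCI-H1048 had 9 lower (26.5% against 18.2%) and 4 higher (11.8% against 16.9%). No member reached a 2-fold change in these 2 lines.

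RNA was sequenced from 4 established human cell lines treated with 1 µM AU-15330 or with the solvent DMSO, with 2 libraries per line and arm, which makes 16. The lines NCI-H526 and NCI-H1048 belong to SCLC-P, the subtype of small-cell lung cancer that depends on the tuft cell factor POU2F3, and NCI-H929 and MM1.S are lines of multiple myeloma, a plasma cell cancer. AU-15330 is a PROTAC, a molecule that brings a protein to a ubiquitin ligase for destruction, and its targets are SMARCA2 and SMARCA4, the ATPases of the mSWI/SNF chromatin remodelling complexes, and the PBRM1 subunit. Sample titles give 24 h of treatment for every library. A supplementary legend of the study also gives 24 h for expression changes in NCI-H526 and NCI-H1048. Other text of the study gives other lengths, so the time cannot be stated more closely.

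Each tumour type is represented by 2 lines, so a difference between types is one between these 4 lines. MM1.S differs from the other 3 lines in library preparation, which removed ribosomal RNA there and selected poly(A) RNA elsewhere, so for MM1.S line and preparation cannot be told apart. The estimated depth per library, in Mreads (1000000 reads), was 31.5 to 43.0 for NCI-H526 and 33.3 to 39.2 for NCI-H1048, and it was lower for MM1.S (16.8 to 32.4) and NCI-H929 (12.0 to 14.0). The study names 2 biological replicates for RNA sequencing of NCI-H526 and NCI-H1048, but at a shorter treatment time than the sample titles give. Whether that statement covers the libraries used here is not settled. For NCI-H929 and MM1.S the sources used here do not say whether the libraries came from separate cultures. The p-values in all 4 lines therefore cover the spread of these libraries, which may be technical. In every group that spread was above counting noise. Its ratio to counting noise, which also depends on depth, was highest between the AU-15330 libraries of NCI-H1048. The labelled cell types carried their markers: the summed level of 4 SCLC-P markers was at least 1100.0 in the DMSO libraries of the SCLC-P lines and at most 12.0 in those of the myeloma lines. The summed level of 6 myeloma markers was at least 4380.0 in DMSO in the myeloma lines and at most 194.0 in the SCLC-P lines. Of 13 fibroblast, T cell and myeloid markers, 10 stayed under 5 in every library. The other 3, named after their values were seen, were CD3E in NCI-H929 (42.4 and 41.5 in DMSO and 4.51 and 5.56 with AU-15330), COL1A1 in NCI-H1048 (39.8 and 35.7 in DMSO and 25.4 and 21.5 with AU-15330) and DCN in NCI-H526 (8.08 and 8.44 in DMSO and 1.81 and 1.93 with AU-15330), each lower with AU-15330, and their part in the results was not tested. Bulk RNA cannot tell fewer cells of a kind from less RNA per cell.

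Dividing cells build purines stepwise on phosphoribosyl pyrophosphate, taking carbon from formyl folate and from glycine, and they build pyrimidines from carbamoyl phosphate and aspartate. Serine is the main donor of one-carbon units: SHMT enzymes pass its side chain carbon to folate, and mitochondrial and cytosolic folate enzymes oxidise and reduce that carbon on the way to purines and thymidylate. Ribonucleotide reductase and thymidylate synthase then turn ribonucleotides into the DNA precursors, and their genes are known to peak in S phase. MYC family factors, E2F factors and ATF4 are known activators of different genes in this network.

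Promoter windows of 4 members are shown because RRM2, TYMS and NME1 had the deepest falls in a myeloma line and because the PPAT window holds the start of another member. Each window runs from 250 bases before the annotated start to 50 bases from it, 5′ to 3′ on the gene's own strand, from RefSeq on GRCh38.p14. PPAT and PAICS, which encode enzymes of the same pathway, lie head to head on chromosome 4, and their start sites in GENCODE are 126 bases apart, so both of those start sites fall within the PPAT window at chr4:56435566-56435865 (minus strand). The RefSeq table takes its PAICS window from another start, which is not shown. Capitals mark the letters CACGTG, an E-box, in PPAT and in NME1 (chr17:51153309-51153608, plus strand), the letters TTTCCCGC read on the opposite strand, an E2F motif, in TYMS (chr18:657403-657702, plus strand), and CCAAT in RRM2 (chr2:10122489-10122788, plus strand).
PPAT: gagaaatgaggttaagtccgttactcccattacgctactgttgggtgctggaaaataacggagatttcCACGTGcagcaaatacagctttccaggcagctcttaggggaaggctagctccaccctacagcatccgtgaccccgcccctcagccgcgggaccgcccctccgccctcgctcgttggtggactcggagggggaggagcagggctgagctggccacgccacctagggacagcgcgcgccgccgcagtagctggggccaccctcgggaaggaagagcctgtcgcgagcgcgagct
NME1: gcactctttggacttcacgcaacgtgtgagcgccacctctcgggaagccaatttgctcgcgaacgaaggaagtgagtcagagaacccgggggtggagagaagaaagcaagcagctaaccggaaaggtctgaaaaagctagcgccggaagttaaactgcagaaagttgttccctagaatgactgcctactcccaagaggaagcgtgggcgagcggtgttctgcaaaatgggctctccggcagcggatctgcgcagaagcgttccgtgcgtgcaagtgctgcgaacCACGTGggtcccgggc
TYMS: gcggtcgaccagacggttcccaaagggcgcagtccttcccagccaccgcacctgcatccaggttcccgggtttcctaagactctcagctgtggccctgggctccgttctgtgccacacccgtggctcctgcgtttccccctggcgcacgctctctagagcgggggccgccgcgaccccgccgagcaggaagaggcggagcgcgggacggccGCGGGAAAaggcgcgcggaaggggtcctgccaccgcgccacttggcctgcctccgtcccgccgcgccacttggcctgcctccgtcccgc
RRM2: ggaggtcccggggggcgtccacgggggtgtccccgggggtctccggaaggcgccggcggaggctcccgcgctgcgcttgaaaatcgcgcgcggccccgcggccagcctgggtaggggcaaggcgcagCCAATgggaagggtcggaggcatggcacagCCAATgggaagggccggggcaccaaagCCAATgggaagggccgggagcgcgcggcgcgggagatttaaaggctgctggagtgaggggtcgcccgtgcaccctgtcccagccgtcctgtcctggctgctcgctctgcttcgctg
The E-box lay 182 to 177 bases before the PPAT start, and the NME1 one lay at bases 35 to 40 counted from the start. The E2F letters of TYMS lay 39 to 32 bases before its start. RRM2 held CCAAT at 3 places, 123 to 119, 93 to 89 and 66 to 62 bases before its start. Among the 29 members with a window in the RefSeq table, CACGTG was present in 6 (20.7%), against 7.43% of 27305 windows. Those 6 were MTHFD1, MTHFD1L, PPAT, ATIC, DHODH and NME1. TTTCCCGC or TTTGGCGC, on either strand, was present in 2 of 29 (6.90%, TYMS and PRPS2), against 2.31% of all windows. CCAAT, on either strand, was present in 15 of 29 (51.7%) against 35.7%, and in 6 of 6 serine and folate members with a window. The ATF4 composite letters TGATGNAA were present in 1 of 29 (3.45%, MTHFD1L) against 3.67%. The windows of all genes include noncoding genes, and a match of letters is not a bound site.

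Values below are the authors' CPM scaled to an effective library size, called scaled CPM. Where a gene is said to move from a pair of values to another pair, the first pair is the 2 DMSO libraries and the other the 2 AU-15330 libraries of that line. Log2 fold changes are AU-15330 over DMSO on log2 of the value plus 0.5, ± the standard error of the fit, and a change was called at an adjusted p under 0.05 with limma over all genes tested in that line. In NCI-H929, 31 of the 34 genes were lower, 1 was higher and 2 did not pass, where 37.6% of all 13115 genes tested were lower and 38.4% higher. The median log2 fold change of the 34 was -1.33, against 0.036 over all genes. A fall of at least 2-fold was called for 25 of the 34 (73.5%), against 12.8% of all genes. In MM1.S, 32 were lower, 1 was higher and 1 did not pass, where 40.2% of 13838 genes were lower and 33.9% higher. The median there was -1.32 against -0.031, and 23 of 34 (67.6%) fell at least 2-fold, against 14.3% of all genes. Scaled to total counts, the median of all genes shifted by 0.22 in NCI-H929 and 0.23 in MM1.S, lower genes made up 37.3% of all calls in place of 49.5% and 40.0% in place of 54.3%, and 31 of the 34 genes were lower in each line. None of the 32 calls in NCI-H929 was lost under any alternative, and 32 of the 33 in MM1.S held in all.

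In NCI-H526, 8 genes were lower (23.5%) and 7 higher (20.6%), with 19 not passing, where 29.8% of 13685 genes tested were lower and 29.0% higher. Both shares were below those over all genes. In NCI-H1048, 9 were lower (26.5%) and 4 higher (11.8%), with 21 not passing, where 18.2% of 13691 genes were lower and 16.9% higher. The median log2 fold changes of the 34 were 0.024 in NCI-H526 and -0.11 in NCI-H1048, against -0.00080 and 0.010 over all genes. None of the 34 fell 2-fold in either line, where 5.29% of all genes in NCI-H526 and 3.64% in NCI-H1048 did. The counts in these 2 lines changed when a single library was left out. Calls over all genes moved in the same direction in the fits named next, so that direction is not particular to the 34. In NCI-H526 the higher genes numbered 4 without DMSO replicate 1, 2 without DMSO replicate 2 and 13 without AU-15330 replicate 1. In NCI-H1048 they numbered 2 with either DMSO replicate left out, and the lower genes 5 without DMSO replicate 1. Of the 15 calls in NCI-H526, 7 held in every alternative, and of the 13 in NCI-H1048, 6 did.

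**Figure D1:**
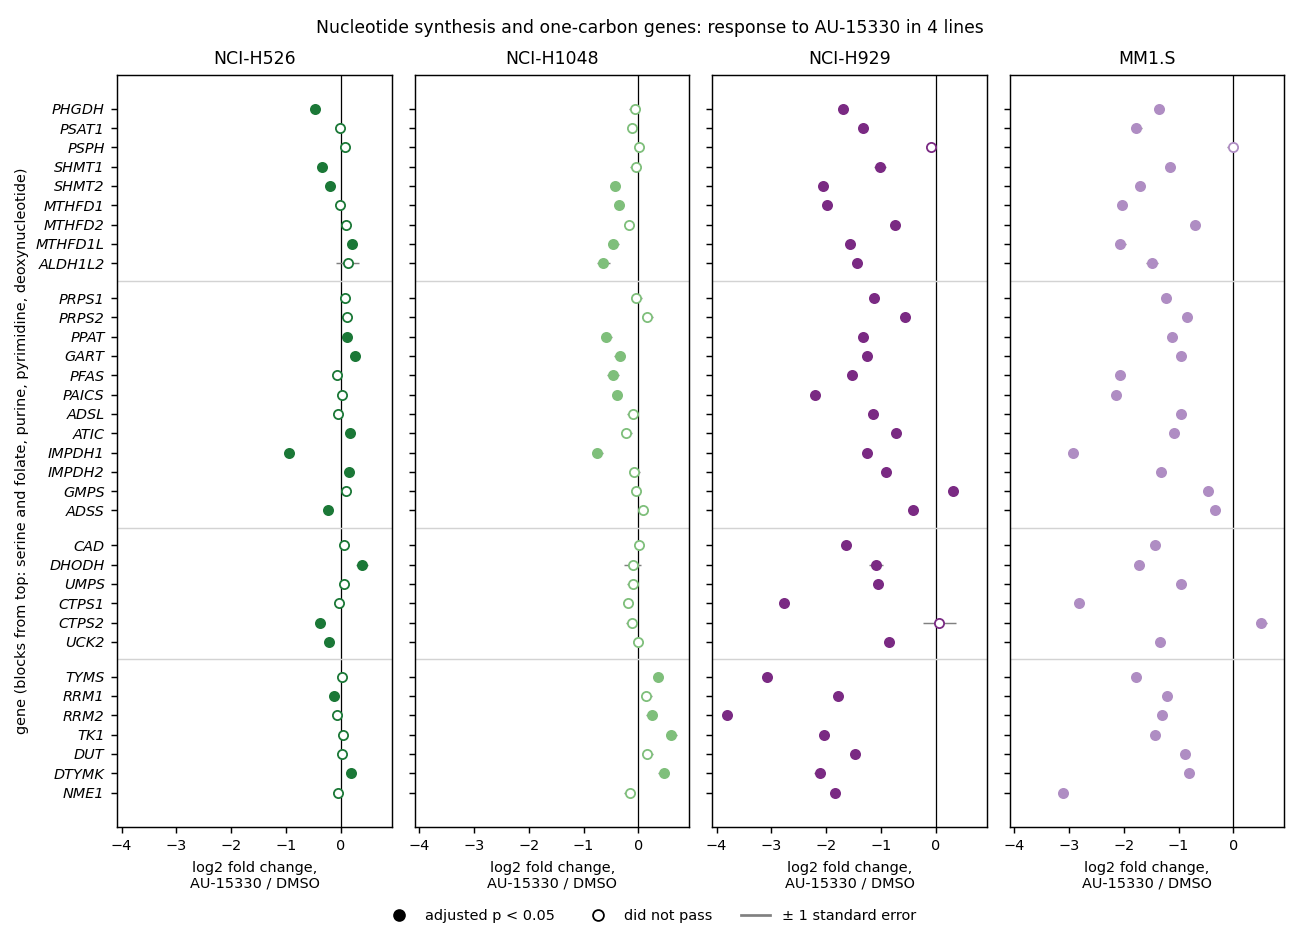
Log2 fold change (AU-15330 over DMSO, horizontal axis) of each of the 34 genes (rows, in 4 blocks by pathway) in each line, with ± 1 standard error; filled points passed an adjusted p of 0.05 and open points did not. In NCI-H929 and MM1.S 31 and 32 points lie left of 0 as filled points, while in NCI-H526 and NCI-H1048 the points lie between -0.95 and 0.60.

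**Figure D2:**
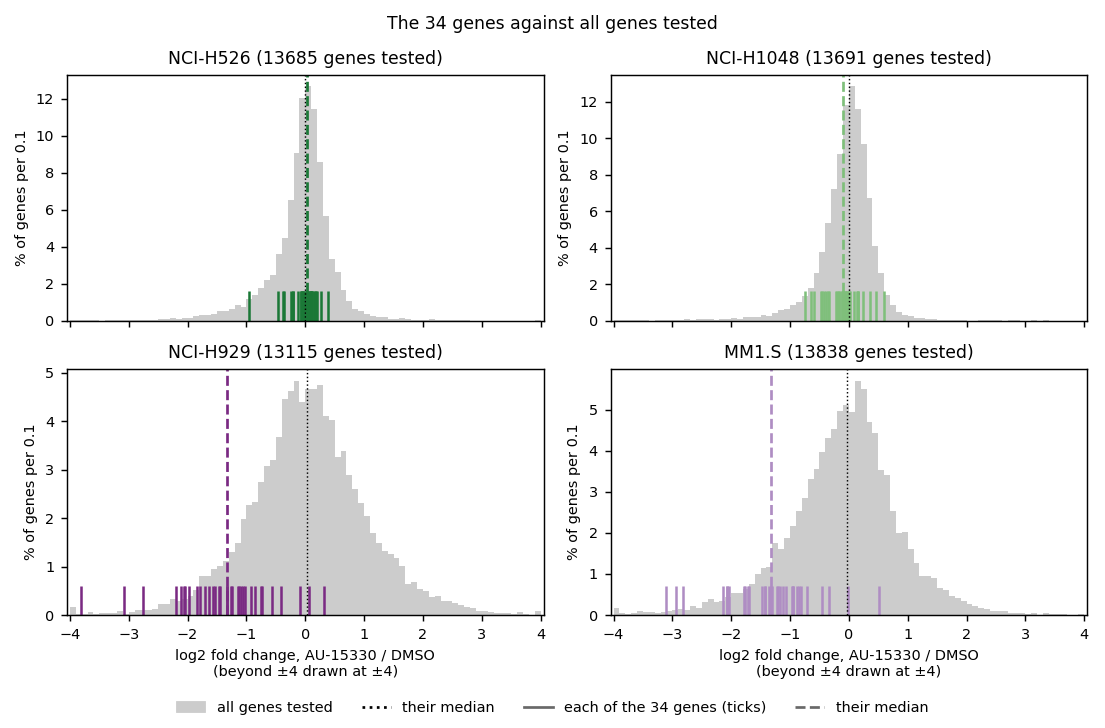
Distribution of log2 fold changes over all genes tested in each line (grey, percent of genes per 0.1), with a tick for each of the 34 genes, the median of all genes as a dotted line and the median of the 34 as a dashed line. The dashed line lies at -1.33 in NCI-H929 and -1.32 in MM1.S, and next to the dotted line in NCI-H526 and NCI-H1048.

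Serine synthesis and the folate cycle fell as a group in the myeloma lines. In NCI-H929 8 of 9 genes were lower (88.9%, against 37.6% of all genes), with a median of -1.45. The same number were lower in MM1.S (88.9% against 40.2%), with a median of -1.48. In NCI-H526 3 of 9 were lower (33.3%, against 29.8% of all genes) and 1 higher (11.1% against 29.0%). In NCI-H1048 4 of 9 were lower (44.4% against 18.2%) and none higher (against 16.9%). The medians in these SCLC-P lines were -0.025 and -0.17. PHGDH, the entry enzyme of serine synthesis, stood at 50.3 and 47.1 in DMSO and 14.7 and 14.5 with AU-15330 in NCI-H929. The MM1.S values were 25.3 and 27.0 in DMSO and 10.0 and 9.71 with AU-15330. Its fall was -1.70 ± 0.089 in NCI-H929 (adjusted p = 4.86e-10) and -1.36 ± 0.092 in MM1.S (adjusted p = 1.96e-07), with no overlap between arms. NCI-H526 also had less PHGDH, with 187 and 187 in DMSO and 131 and 138 with AU-15330 (-0.47 ± 0.04, adjusted p = 5.17e-06). In NCI-H1048 the arms overlapped, at 438 and 433 in DMSO and 439 and 391 with AU-15330. The next enzyme of the pathway, PSAT1, changed by -1.32 and -1.77 in NCI-H929 and MM1.S, where it was lower, and by -0.026 and -0.12 in NCI-H526 and NCI-H1048, where it did not pass. PSPH, which releases free serine in the last step, passed in none of the 4 lines, with log2 fold changes of 0.068 in NCI-H526, 0.012 in NCI-H1048, -0.084 in NCI-H929 and -0.011 in MM1.S.

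SHMT2, the mitochondrial enzyme that takes the one-carbon unit from serine, was lower in all 4 lines. In the myeloma lines it stood at 166 and 169.8 in DMSO and 39.1 and 40.4 with AU-15330 in NCI-H929, and at 115 and 116 in DMSO and 36.5 and 34.3 with AU-15330 in MM1.S. The changes were -2.06 ± 0.053 and -1.69 ± 0.063 (adjusted p = 4.03e-13 and 2.54e-09). In NCI-H526 the SHMT2 values were 216 and 214 in DMSO and 185 and 187 with AU-15330, and in NCI-H1048 they were 256 and 257 in DMSO and 201 and 182 with AU-15330. Those falls were smaller, -0.21 ± 0.037 (adjusted p = 9.78e-04) and -0.42 ± 0.095 (adjusted p = 0.00181), and the arms did not overlap in any line. SHMT1, its cytosolic counterpart, was lower in 3 lines. It moved from 28.6 and 30.6 to 13.7 and 14.9 in NCI-H929, from 37.6 and 38.2 to 16.7 and 16.7 in MM1.S and from 69.0 and 71.7 to 53.9 and 55.9 in NCI-H526. The NCI-H1048 values of SHMT1, 60.2 and 58.4 in DMSO and 58.4 and 56.1 with AU-15330, differed by -0.052 ± 0.099, which did not pass (adjusted p = 0.718). Of the pair, SHMT2 fell further in each myeloma line (-2.06 against -1.02 in NCI-H929 and -1.69 against -1.16 in MM1.S), and that gap was not tested.

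MTHFD1, the cytosolic enzyme that carries out 3 folate reactions, moved from 206 and 202 to 52.7 and 50.2 in NCI-H929 and from 117 and 128 to 29.2 and 29.6 in MM1.S. NCI-H1048 had a smaller fall of MTHFD1, from 222 and 233 to 178 and 178, and in NCI-H526 the arms overlapped, at 307 and 310.3 in DMSO and 297 and 310.4 with AU-15330. The log2 fold changes were -1.98, -2.04, -0.35 and -0.025 in that order, the first 3 of them called. The call in NCI-H1048 was lost with either DMSO replicate left out. MTHFD1L, which makes formate in mitochondria for export to the cytosol, was called in opposite directions. It moved from 80.7 and 75.2 to 26.2 and 25.5 in NCI-H929, from 30.5 and 31.8 to 7.51 and 6.65 in MM1.S and from 61.0 and 59.5 to 44.5 and 43.0 in NCI-H1048. NCI-H526 went the other way, from 61.3 and 58.3 to 68.6 and 68.6 (0.20 ± 0.046, adjusted p = 0.00414), a call that was lost without DMSO replicate 2. The falls in the other lines were -1.57, -2.07 and -0.46, and the NCI-H1048 call was lost without DMSO replicate 1.

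ALDH1L2, which oxidises formyl folate in mitochondria and yields NADPH, had its highest level in NCI-H929, with 276 and 287 in DMSO and 98.7 and 107 with AU-15330. It stood at 22.0 and 24.1 in DMSO and 8.55 and 7.34 with AU-15330 in MM1.S and at 22.6 and 23.3 in DMSO and 13.9 and 15.2 with AU-15330 in NCI-H1048. All 3 lines had a called fall, of -1.45, -1.48 and -0.64. In NCI-H526 ALDH1L2 was near the filter, at 1.25 and 1.12 in DMSO and 1.69 and 1.03 with AU-15330, and did not pass. MTHFD2, the mitochondrial dehydrogenase and cyclohydrolase that is upregulated in many tumours, had the smallest called falls of the group in the myeloma lines, -0.75 in NCI-H929 and -0.71 in MM1.S, and did not pass in NCI-H526 (0.092) or NCI-H1048 (-0.17). Its exons share 11.6% of their bases with SLC4A5 on the other strand.

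Purine synthesis genes were mostly lower in the myeloma lines. In MM1.S 12 of 12 genes were lower (against 40.2% of all genes), with a median of -1.10. In NCI-H929 11 of 12 were lower (91.7% against 37.6%) and 1 higher (8.33% against 38.4%), with a median of -1.14. NCI-H526 had 4 higher (33.3%, against 29.0% of all genes) and 2 lower (16.7% against 29.8%), with a median of 0.084. NCI-H1048 had 5 lower (41.7% against 18.2%) and none higher (against 16.9%), with a median of -0.16. The synthetases PRPS1 and PRPS2, which make the ribose phosphate donor, were lower in NCI-H929 (-1.13 and -0.56) and MM1.S (-1.23 and -0.85). Neither passed in NCI-H526 (0.074 and 0.10) or in NCI-H1048 (-0.036 and 0.16). PPAT, the enzyme of the committed step, had values of 139.9 and 148 in DMSO and 55.4 and 58.1 with AU-15330 in NCI-H929. In MM1.S they were 83.5 and 98.9 in DMSO and 43.3 and 39.8 with AU-15330, and in NCI-H1048 66.2 and 67.7 in DMSO and 42.1 and 47.0 with AU-15330. These 3 lines had less PPAT, by -1.33, -1.12 and -0.59 on the log2 scale. In NCI-H526 PPAT was higher, with 146 and 149 in DMSO and 158 and 163 with AU-15330 (0.12 ± 0.04, adjusted p = 0.0279). That call was lost with either DMSO replicate left out, with no filter, with no variance trend and in 1 fit of all 16 libraries.

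PAICS, whose GENCODE start site falls within the PPAT window printed above, acts further down the same pathway. It had the deepest fall of the purine group in NCI-H929. It went from 467 and 477 to 101 and 103 there (-2.20 ± 0.04, adjusted p = 1.73e-14) and from 347 and 362 to 79.8 and 81.0 in MM1.S (-2.14 ± 0.053, adjusted p = 2.63e-10). In both lines PAICS fell by more than PPAT, and the gap between these neighbours was not tested. NCI-H1048 had a small fall of PAICS, from 263 and 295 to 207 and 217 (-0.39), a call lost without DMSO replicate 2. NCI-H526 showed overlapping PAICS values, 464 and 468 in DMSO and 464 and 482 with AU-15330.

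GART, a protein with 3 enzyme activities in the early pathway, had 157 and 163 in DMSO and 67.4 and 66.6 with AU-15330 in NCI-H929. The GART values were 227 and 227 in DMSO and 119.8 and 113 with AU-15330 in MM1.S and 120.3 and 132 in DMSO and 91.0 and 108 with AU-15330 in NCI-H1048. NCI-H526 again went up, from 192 and 193 to 229.5 and 231 (0.26 ± 0.037, adjusted p = 1.98e-04), against called changes of -1.25, -0.96 and -0.34 elsewhere. The NCI-H526 call held in every alternative. The NCI-H1048 call was lost with either DMSO replicate left out, with no filter and with no variance trend. PFAS, which adds an amide nitrogen, was lower in 3 lines. It moved from 78.3 and 79.4 to 26.4 and 27.3 in NCI-H929, from 86.4 and 86.0 to 18.1 and 22.4 in MM1.S and from 61.0 and 55.9 to 39.9 and 44.5 in NCI-H1048, while NCI-H526 had 49.3 and 52.7 in DMSO and 48.1 and 49.4 with AU-15330. The log2 changes were -1.54, -2.07 and -0.47, and -0.064 in NCI-H526, which did not pass. Without DMSO replicate 1 the NCI-H1048 call of PFAS was lost.

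ADSL, which acts both on the way to IMP and on the way from IMP to AMP, changed by -1.15 in NCI-H929 and -0.96 in MM1.S, both called, and did not pass in NCI-H526 (-0.052) or NCI-H1048 (-0.11). ATIC, which closes the ring to give IMP, moved from 198 and 227 to 127 and 129 in NCI-H929 and from 137 and 145 to 68.4 and 65.1 in MM1.S. In NCI-H526 it went from 164 and 165 to 181 and 186, a call for higher (0.16). That call was lost with either DMSO replicate left out and in 1 fit of all 16 libraries. In NCI-H1048 ATIC stood at 149 and 162 in DMSO and 138 and 129 with AU-15330 and did not pass. Its falls in the myeloma lines were -0.73 and -1.08.

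At the branch from IMP the paralogs IMPDH1 and IMPDH2, which catalyse the rate-limiting step towards guanine nucleotides, had different calls in the SCLC-P lines. IMPDH1 (ENSG00000106348, chr7:128392277-128409986, minus strand) was the gene with the lowest log2 fold change of all 34 in NCI-H526 and in NCI-H1048, and was lower in all 4 lines. Its values were 79.1 and 74.5 in DMSO and 38.1 and 40.8 with AU-15330 in NCI-H526 and 54.0 and 47.2 in DMSO and 30.8 and 29.0 with AU-15330 in NCI-H1048. In NCI-H929 they were 71.1 and 76.2 in DMSO and 32.1 and 29.1 with AU-15330. The arms were far apart in MM1.S, at 56.5 and 56.0 in DMSO and 6.57 and 7.34 with AU-15330. The falls were -0.95 ± 0.053 (adjusted p = 2.44e-07), -0.75 ± 0.11 (adjusted p = 2.13e-05), -1.26 ± 0.073 (adjusted p = 1.60e-09) and -2.93 ± 0.089 (adjusted p = 6.85e-10) in that order. IMPDH2 was higher in NCI-H526, with 144 and 146 in DMSO and 158 and 164 with AU-15330 (0.15). That call was lost with either DMSO replicate left out and with no variance trend. The IMPDH2 arms overlapped in NCI-H1048, at 213 and 215 in DMSO and 214 and 194 with AU-15330. In the myeloma lines IMPDH2 was lower, from 609 and 635 to 331 and 328 in NCI-H929 (-0.91) and from 204 and 207 to 80.5 and 82.7 in MM1.S (-1.33). A same-strand gene model covers 32.8% of the IMPDH2 exon bases.

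GMPS (ENSG00000163655, chr3:155870650-155944020, plus strand), which aminates XMP to GMP, was the only member higher in NCI-H929, where 74.8 and 84.5 in DMSO became 101 and 97.0 (0.31 ± 0.062, adjusted p = 3.96e-04). MM1.S had the opposite call, from 197 and 211 to 148 and 147 (-0.46 ± 0.056, adjusted p = 2.00e-05). Neither SCLC-P line passed, with 184 and 186 in DMSO and 196 and 200.0 with AU-15330 in NCI-H526 and 221 and 227 in DMSO and 215 and 221 with AU-15330 in NCI-H1048. ADSS, which leads from IMP towards AMP, moved from 124 and 117 to 91.1 and 89.9 in NCI-H929, from 88.3 and 90.3 to 72.3 and 68.6 in MM1.S and from 93.0 and 94.0 to 76.3 and 81.5 in NCI-H526, all called lower (-0.41, -0.34 and -0.24). In NCI-H1048 it stood at 118 and 123 in DMSO and 126 and 129 with AU-15330 and did not pass. The MM1.S call of ADSS was lost with total-count scaling.

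**Figure D3:**
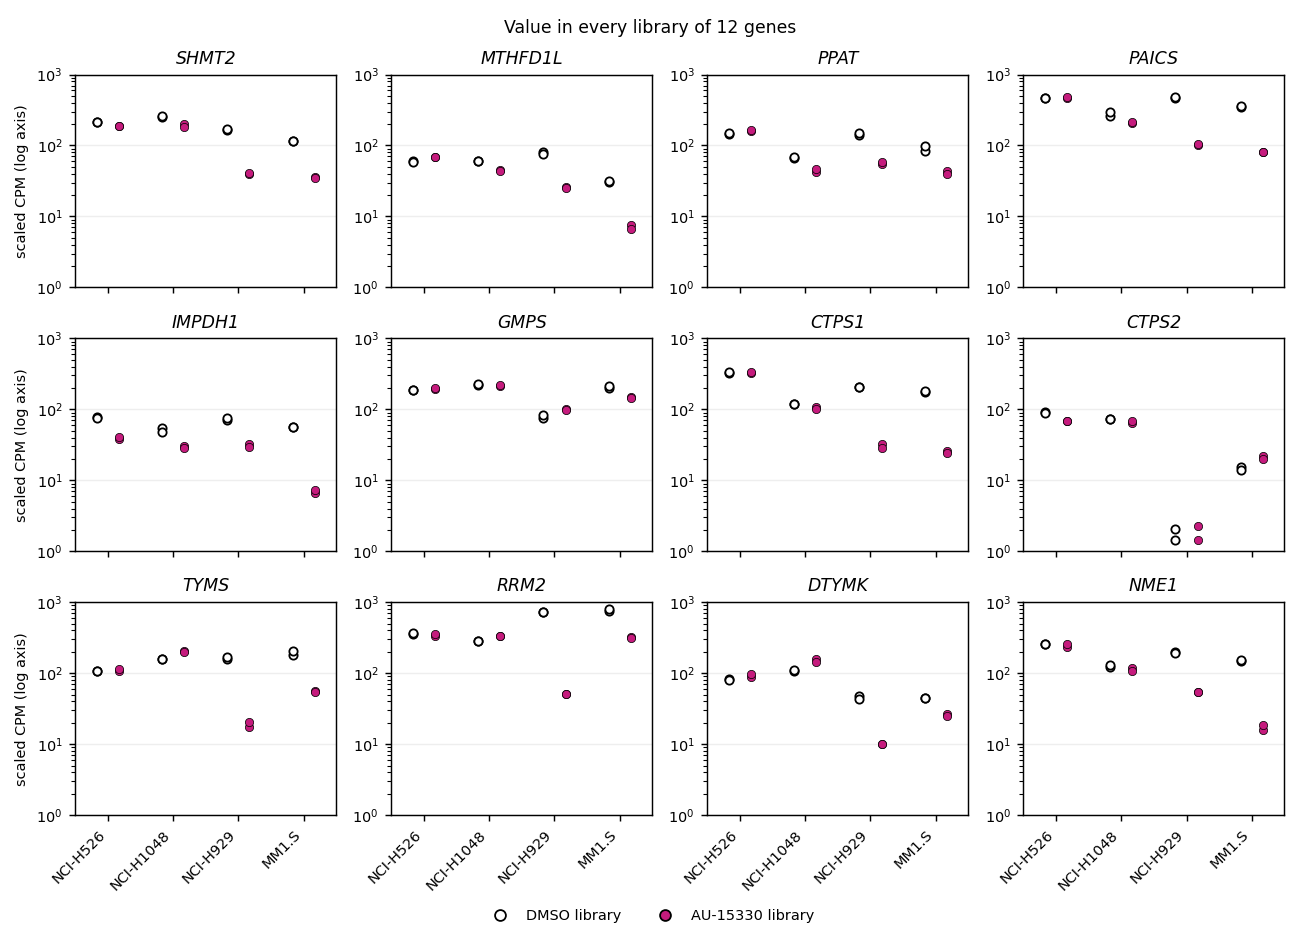
Scaled CPM (log axis) of 12 genes in each of the 16 libraries, with open points for DMSO and filled points for AU-15330, 2 libraries per line and arm. IMPDH1 is lower with AU-15330 in every line, GMPS is higher with AU-15330 in NCI-H929 and lower in MM1.S, the arms of CTPS1 lie far apart in NCI-H929 and MM1.S, and those of RRM2 lie farthest apart in NCI-H929.

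Pyrimidine genes were lower in the myeloma lines in 5 of 6 cases each (83.3%), against 37.6% of all genes in NCI-H929 and 40.2% in MM1.S. The medians were -1.07 in NCI-H929 and -1.38 in MM1.S. NCI-H526 had 1 higher (16.7%, against 29.0% of all genes) and 2 lower (33.3% against 29.8%). In NCI-H1048 none of the 6 passed, where 18.2% of all genes were lower and 16.9% higher. CAD, the large protein that starts the pathway, was lower in NCI-H929 (-1.64) and MM1.S (-1.43) and did not pass in NCI-H526 (0.047) or NCI-H1048 (0.01). DHODH, the mitochondrial membrane enzyme that couples the pathway to the respiratory chain, moved from 19.8 and 18.2 to 8.60 and 8.76 in NCI-H929 and from 27.2 and 28.8 to 7.90 and 8.45 in MM1.S (-1.09 and -1.72). It was the gene with the highest log2 fold change in NCI-H526, from 10.8 and 12.3 to 16.8 and 13.8 (0.39 ± 0.11, adjusted p = 0.0105, lost with no filter or no variance trend), and had overlapping arms in NCI-H1048, at 8.18 and 6.35 in DMSO and 7.26 and 6.14 with AU-15330. UMPS, which finishes UMP, was lower in NCI-H929 (-1.05) and MM1.S (-0.96), and the values in NCI-H526 (0.047) and NCI-H1048 (-0.11) did not pass.

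CTPS1 (ENSG00000171793, chr1:40979300-41012565, plus strand), the enzyme that turns UTP into CTP and is induced in dividing lymphocytes, was among the 3 lowest members in both myeloma lines. In NCI-H929 its values were 206 and 208 in DMSO and 32.2 and 28.1 with AU-15330, and in MM1.S 176 and 181 in DMSO and 25.7 and 24.0 with AU-15330. The falls, -2.76 ± 0.065 (adjusted p = 1.63e-13) and -2.82 ± 0.064 (adjusted p = 1.62e-10), were 6.78-fold and 7.06-fold. NCI-H526 had overlapping values, 329.9 and 338 in DMSO and 320.2 and 331 with AU-15330, and NCI-H1048 had 121 and 118 in DMSO and 107 and 101 with AU-15330, a change of -0.19 ± 0.095 that did not pass. CTPS2, the paralog with the same activity, was the only member higher in MM1.S, from 15.6 and 13.9 to 22.2 and 20.2 (0.51 ± 0.098, adjusted p = 7.02e-04), and was lower in NCI-H526, from 90.4 and 89.7 to 68.7 and 69.2 (-0.38 ± 0.041, adjusted p = 2.52e-05, lost in 1 fit of all 16 libraries). NCI-H929 had almost no CTPS2, with overlapping values of 2.05 and 1.43 in DMSO and 2.29 and 1.43 with AU-15330, and NCI-H1048 had 72.1 and 72.9 in DMSO and 64.6 and 68.4 with AU-15330, which did not pass. UCK2, the salvage kinase for uridine and cytidine, moved from 235 and 241 to 131 and 131 in NCI-H929, from 147 and 151 to 57.7 and 60.1 in MM1.S and from 318 and 323 to 268 and 284 in NCI-H526 (-0.86, -1.33 and -0.21, all called). In NCI-H1048 its arms overlapped, at 129.6 and 131 in DMSO and 132 and 128 with AU-15330.

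The 7 deoxynucleotide genes were lower in both myeloma lines without exception, against 37.6% of all genes in NCI-H929 and 40.2% in MM1.S. Their median was -2.05 in NCI-H929 and -1.30 in MM1.S. In NCI-H1048 4 of the 7 were higher (57.1%, against 16.9% of all genes) and none lower (against 18.2%), with a median of 0.24. In NCI-H526 1 was higher (14.3% against 29.0%) and 1 lower (14.3% against 29.8%), with a median of 0.022. RRM2, the small subunit of ribonucleotide reductase, whose level is known to follow the cell cycle, had the deepest fall of any member in any line. Its values were 731 and 727 in DMSO and 51.6 and 51.4 with AU-15330 in NCI-H929, a 14.0-fold fall (-3.81 ± 0.041, adjusted p = 2.35e-16). MM1.S had 762 and 809 in DMSO and 322 and 313 with AU-15330, a 2.47-fold fall (-1.30 ± 0.053, adjusted p = 4.42e-09). In DMSO the 2 lines stood close to each other, and with AU-15330 they stood far apart. NCI-H1048 had a slight rise of RRM2, from 283 and 287 to 336 and 337 (0.24 ± 0.091, adjusted p = 0.0496), lost with either DMSO replicate left out and under 5 other settings. NCI-H526 had 358 and 365 in DMSO and 334 and 354 with AU-15330 and did not pass. RRM1, the large subunit, moved from 158 and 173 to 44.9 and 50.2 in NCI-H929 and from 211 and 228 to 95.9 and 94.4 in MM1.S (-1.79 and -1.20). It was also called lower in NCI-H526, from 461 and 462 to 413 and 429 (-0.13). That call was lost with either DMSO replicate left out, with no filter, with no variance trend and in 1 fit of all 16 libraries. The RRM1 arms overlapped in NCI-H1048, at 404 and 450.1 in DMSO and 445 and 499 with AU-15330.

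TYMS, thymidylate synthase, went from 158 and 170.0 to 17.2 and 20.7 in NCI-H929 (-3.08 ± 0.082, adjusted p = 5.47e-13) and from 181 and 203 to 56.1 and 54.8 in MM1.S (-1.78 ± 0.066, adjusted p = 2.37e-09). NCI-H1048 had more of it, from 158 and 157 to 207 and 196 (0.36, lost with either DMSO replicate left out), and NCI-H526 had overlapping values, 107 and 108 in DMSO and 106 and 114 with AU-15330. The antisense gene ENOSF1 covers 39.9% of the TYMS exon bases, and whether the quantification used strand is not given in the sources used here. TK1, the cytosolic thymidine kinase of the salvage route, moved from 58.4 and 56.3 to 13.6 and 13.4 in NCI-H929 and from 55.6 and 59.6 to 21.1 and 21.1 in MM1.S (-2.05 and -1.43). It was the member with the highest rise in NCI-H1048, from 60.7 and 64.5 to 102 and 89.0 (0.60 ± 0.10, adjusted p = 1.33e-04), and in NCI-H526 it stood at 33.2 and 37.4 in DMSO and 35.3 and 36.6 with AU-15330 with no call.

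DTYMK, which phosphorylates dTMP, was higher in both SCLC-P lines and lower in both myeloma lines. The rise was from 108 and 109.7 to 157 and 143 in NCI-H1048 (0.46 ± 0.096, adjusted p = 9.64e-04). In NCI-H526 it was from 82.5 and 80.0 to 88.1 and 96.1 (0.18 ± 0.05, adjusted p = 0.0112). The NCI-H526 call was lost without DMSO replicate 2 and with no variance trend. The fall was from 48.0 and 43.6 to 10.2 and 10.1 in NCI-H929 (-2.12) and from 45.2 and 45.1 to 26.3 and 24.6 in MM1.S (-0.81). DUT, which removes dUTP, was lower in NCI-H929 (-1.47) and MM1.S (-0.89), with 0.022 in NCI-H526 and 0.16 in NCI-H1048, neither of which passed. NME1, a nucleoside diphosphate kinase, was the member with the deepest fall in MM1.S, with 149 and 152 in DMSO and 15.6 and 18.7 with AU-15330 (-3.10 ± 0.084, adjusted p = 3.68e-10). In NCI-H929 it moved from 197 and 192 to 54.1 and 53.9 (-1.84 ± 0.049, adjusted p = 5.14e-13). NCI-H526 had overlapping NME1 values, 256 and 254 in DMSO and 231 and 259 with AU-15330, and NCI-H1048 had 122 and 131 in DMSO and 118 and 108 with AU-15330, which did not pass. NME1 shares 18.7% of its exon bases with the readthrough gene NME1-NME2.

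The difference in response between tumour types was tested directly, as the mean change of the SCLC-P lines minus that of the myeloma lines. Of the 34 genes, 31 had a higher (less negative) change in SCLC-P, 1 a lower one and 2 did not pass, where 41.5% of 11059 genes were higher and 34.6% lower. The median difference of the 34 was 1.25, against 0.055 over all genes. The 3 widest were CTPS1 (2.68 ± 0.064, adjusted p = 3.09e-14), RRM2 (2.64 ± 0.05, adjusted p = 1.85e-15) and TYMS (2.62 ± 0.079, adjusted p = 2.37e-13). CTPS2 was the gene with a lower change (-0.54 ± 0.14, adjusted p = 0.00304), and PSPH (0.088) and GMPS (0.10) did not pass. With the poly(A) libraries alone, and NCI-H929 as the myeloma line, the counts were again 31 higher and 1 lower, but CTPS2 was not called there and the lower gene was GMPS (-0.28). Scaled to total counts, lower genes made up 58.6% of all calls in place of 45.5%, and 30 of the 34 genes had a higher change in SCLC-P and 1 a lower one.

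Between the 2 myeloma lines, 10 of 34 changes were higher in MM1.S and 11 lower, where 20.1% of 12138 genes were higher and 28.1% lower. By group, 6 of 7 deoxynucleotide genes fell less in MM1.S and 1 (NME1) fell more. Of 12 purine genes, 6 changed more negatively in MM1.S and 1 (GART) less. Outside the 34, 17 of 20 replication and S phase genes also had a higher change in MM1.S and 2 a lower one. Of 17 ATF4 response genes, 12 were higher and 3 lower. Of 10 further deoxynucleotide genes, 3 were higher and 5 lower. RRM2 had the widest difference (2.51 ± 0.061, adjusted p = 6.89e-10), followed by IMPDH1 in the other direction (-1.67 ± 0.12, adjusted p = 9.21e-07) and DTYMK (1.30 ± 0.11, adjusted p = 4.41e-06). Over the 34 genes the changes in the 2 myeloma lines had a Pearson correlation of 0.584 and a Spearman correlation of 0.644, against 0.719 and 0.736 over 12138 genes. These lines share no control libraries, and genes are not independent replicates.

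Between the 2 SCLC-P lines, 7 changes were higher in NCI-H1048 and 8 lower, where 15.5% of 12544 genes were higher and 13.4% lower. The widest were ALDH1L2 (-0.76 ± 0.23, adjusted p = 0.0272), PPAT (-0.70 ± 0.097, adjusted p = 3.12e-04) and MTHFD1L (-0.65 ± 0.092, adjusted p = 3.40e-04). ALDH1L2 was close to the filter in NCI-H526, and its difference was lost when any 1 of 5 libraries was left out: DMSO replicate 2 or AU-15330 replicate 1 of NCI-H526, or DMSO replicate 1, DMSO replicate 2 or AU-15330 replicate 1 of NCI-H1048. That difference was also lost with no filter. Scaled to total counts, lower genes made up 56.6% of all calls in place of 46.4%, and 5 of the 34 were higher and 11 lower. Of the 15 called, 6 held in every alternative (PHGDH, MTHFD1L, PPAT, GART, PAICS and TK1). Over the 34 genes the Pearson correlation of the changes in the 2 lines was 0.195 and Spearman's -0.028, against 0.465 and 0.426 over 12544 genes.

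Further genes of the same pathways, 45 that were not among the 34, gave smaller medians in the same lines. Of the 44 tested in NCI-H929, 28 were lower (63.6%, against 37.6% of all genes) and 9 higher (20.5% against 38.4%), with a median of -0.56. Of the 44 tested in MM1.S, 26 were lower (59.1% against 40.2%) and 9 higher (20.5% against 33.9%), with a median of -0.41. The groups differed. In NCI-H929 and MM1.S the medians were -0.65 and -0.49 for serine and folate and -1.01 and -0.98 for purine. They were -0.14 and 0.18 for pyrimidine and -0.60 and -0.17 for deoxynucleotide. Of 42 tested in NCI-H526, 14 were lower (33.3% against 29.8%) and 12 higher (28.6% against 29.0%). Of 42 in NCI-H1048, 9 were lower (21.4% against 18.2%) and 4 higher (9.52% against 16.9%). The lower shares in both SCLC-P lines were near those of all genes. Among the called genes with the smallest adjusted p was GLDC, the glycine decarboxylase, in NCI-H929 (-2.39). In MM1.S the 2 were GLDC (-3.51) and NME2 (-2.41), the paralog next to NME1. NCI-H1048 gave PNP (-0.78), a purine salvage enzyme, and DPYD (1.02), which breaks down pyrimidines. In NCI-H526 the 2 were SAMHD1 (0.58), which hydrolyses dNTPs, and RRM2B (-0.52), the p53-induced small subunit of ribonucleotide reductase.

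Lists of S phase and ATF4 response genes were set beside the 34. Of 20 replication and S phase genes, 20 were lower in NCI-H929 (median -2.46) and 20 in MM1.S (median -1.96). NCI-H526 had 3 higher and 10 lower (median -0.11), and NCI-H1048 3 higher and 1 lower (median 0.059). Of 17 ATF4 response genes, 9 were lower and 3 higher in NCI-H929 (median -0.69), 6 and 5 in MM1.S (median -0.13), 5 and 8 in NCI-H526, and 4 and 3 in NCI-H1048. Of all genes tested, 37.6% were lower and 38.4% higher in NCI-H929, and 40.2% and 33.9% in MM1.S. In NCI-H526 these shares were 29.8% and 29.0%, and in NCI-H1048 18.2% and 16.9%. The ATF4 response counts in MM1.S and NCI-H1048 were near the shares of all genes. The part of a changed share of cells in S phase in the falls of the 34 genes was not tested.

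**Figure D4:**
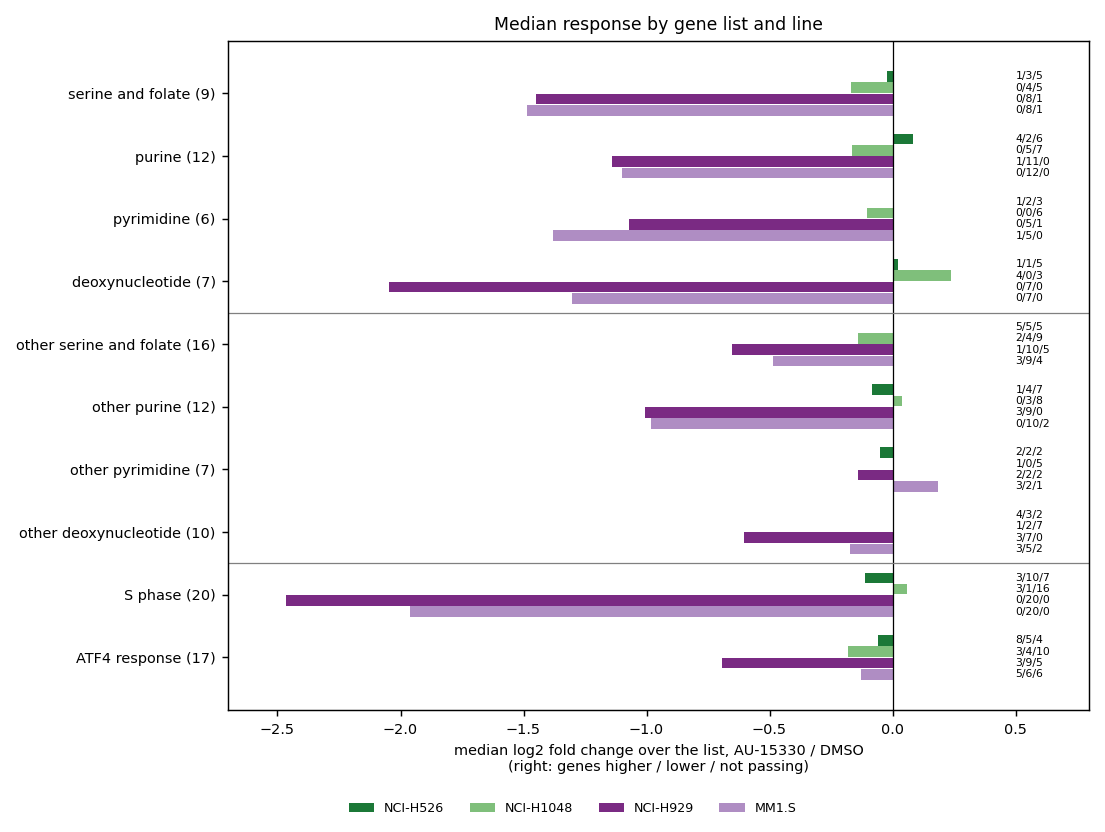
Median log2 fold change (AU-15330 over DMSO, bars) of the 4 groups of the 34 genes (top), of further genes of the same pathways (middle) and of the S phase and ATF4 response lists (bottom), 1 bar per line; the numbers at right count genes higher, lower and not passing. The lowest medians are those of the S phase list and of the deoxynucleotide group in NCI-H929, at -2.46 and -2.05.

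Among regulators, MYC was lower in both myeloma lines and in NCI-H1048. It stood at 527 and 532 in DMSO and 15.4 and 14.9 with AU-15330 in MM1.S (-5.09 ± 0.057) and at 299.8 and 317 in DMSO and 39.4 and 38.2 with AU-15330 in NCI-H929 (-2.97 ± 0.051). In NCI-H1048 MYC went from 189 and 177 to 41.3 and 36.4 (-2.22 ± 0.10). NCI-H526 had almost no MYC, at 0.541 and 0.534 in DMSO and 0.407 and 0.510 with AU-15330, and carried MYCN, at 1622 and 1658 in DMSO and 1231 and 1283 with AU-15330 (-0.38). E2F1 was lower in NCI-H929 (-1.58), MM1.S (-1.49) and NCI-H526 (-0.32) and gave 0.009 in NCI-H1048, which did not pass. ATF4 was lower in NCI-H929 (-0.46) and MM1.S (-0.20) and did not pass in NCI-H526 or NCI-H1048. MYCL was lower in MM1.S (-0.86) and NCI-H526 (-0.47). The part of these regulators in the changes of the 34 genes was not tested. Transcripts of the degraded proteins changed by less than 2-fold, with SMARCA2 between -0.35 and 0.16, SMARCA4 between -0.22 and 0.12 and PBRM1 between -0.27 and 0.0069 over the lines. In NCI-H526 SMARCA2 was called higher and SMARCA4 and PBRM1 lower, in NCI-H929 SMARCA4 was called lower and in MM1.S SMARCA2 was. These transcripts check nothing of the degradation, which acts on protein.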

How the data were processed

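Per the labels and the study's methods, the authors trimmed reads, quantified them with kallisto on hg38, and used edgeR and limma; the deposited table holds CPM scaled to an effective library size, treated as a signal since the column totals ran from 0.829 to 1.192 times 1000000 and whole reads could not be recovered. Depth was estimated by taking the commonest low value above 0 in a library as the value of 1 read. No column was left unused (0). Genes with a mean of at least 1 in a line were analysed on log2(value + 0.5) with limma 3.58.1 in R 4.3.3 (trend in the variance), each line alone; response differences were contrasts in a fit of the lines concerned. P-values were Benjamini-Hochberg adjusted over all genes tested, at a threshold of 0.05, and the fit was tested on simulated data. The 34 genes and all lists were chosen with earlier results of these data known. Library values are given for members among the 3 highest or lowest called in a line, called alike in at least 3 lines, or called in opposite directions. Of genes outside the 34, named are the regulators, the degraded proteins and the 2 called pathway genes with the smallest adjusted p per line, of which 1 is not reported here. Alternatives were the pseudocount (0.1 or 1), the filter (a mean of 5, or none), median-ratio, quantile and total-count scaling, 1 fit of all 16 libraries, no trend, a replicate block and each library left out. A crossed pairing and a poly(A) comparison were added after the data were seen.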

Additional observations from a re-analysis of the deposited data

Results flagged for a closer look

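By a test of the difference itself (limma contrast), the response differed for 32 of the 34 genes between tumour types. It differed for 21 between the myeloma lines and for 15 between the SCLC-P lines. Over all genes tested, 41.5% were called higher and 34.6% lower between tumour types. The shares were 20.1% and 28.1% between the myeloma lines and 15.5% and 13.4% between the SCLC-P lines. Of the 21 myeloma calls, 18 held in every alternative. The 3 widest differences of each comparison are given here. Between tumour types, as SCLC-P minus myeloma, these were CTPS1 (2.68), RRM2 (2.64) and TYMS (2.62) on the log2 scale, each with a fall in both myeloma lines. Between the myeloma lines, as MM1.S minus NCI-H929, RRM2 differed by 2.51 and DTYMK by 1.30, both with the deeper fall in NCI-H929, and IMPDH1 by -1.67, with the deeper fall in MM1.S. Library preparation differs between these 2 lines, and its part was not tested. Between the SCLC-P lines, as NCI-H1048 minus NCI-H526, ALDH1L2 differed by -0.76, PPAT by -0.70 and MTHFD1L by -0.65, each lower in NCI-H1048. With 2 libraries per group, no single library could be tested as standing apart from its group.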

How the results depend on the processing

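The myeloma counts moved little: 1 higher and 31 lower in NCI-H929 under each of the 14 alternatives run there, and 1 higher and 31 or 32 lower in MM1.S. In NCI-H526 the higher genes numbered 7, against 11 with total-count scaling, 3 without the variance trend and 2 to 13 without 1 library. In NCI-H1048 they numbered 4, against 2 to 5 without 1 library, and the lower genes 9, against 5 to 12. For NCI-H1048 minus NCI-H526 the higher genes numbered 7, against 2 to 9 without 1 library, and the lower genes 8, against 5 to 9. For SCLC-P minus myeloma the single lower gene, CTPS2, was removed by the filter at a mean of 5, which left 0 lower; in NCI-H929 it was under that filter. The same difference of GMPS, 0.10 and not called, was -0.28 and called with the poly(A) libraries and NCI-H929 alone, an alternative added after the data were seen; no called value changed its sign. The causes of the other shifts were not tested. In the fits without a library, the number of calls over all genes changed as well. Quantile normalization moved the median of all genes by 0.14 in MM1.S and by -0.11 in SCLC-P minus myeloma, and total-count scaling by -0.21 in the latter.

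Libraries share replicate numbers, but nothing says that a number marks a shared culture or day, and deviations of same-numbered libraries correlated by 0.0119 in NCI-H526, 0.217 in NCI-H1048, -0.0112 in NCI-H929 and -0.142 in MM1.S. With a replicate block the members higher and lower were 10 and 8 in NCI-H526, 4 and 9 in NCI-H1048, 1 and 31 in NCI-H929 and 1 and 32 in MM1.S. A crossed pairing, added after the data were seen, gave 1 and 32 in MM1.S. Estimated depth was lowest in NCI-H929, and CTPS2 (NCI-H929) and ALDH1L2 (NCI-H526), which were near the filter, had wide standard errors of 0.30 and 0.21.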

Other observations

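The further pathway genes named here are outside the 34 and were chosen after their values were seen. DPYD, which breaks down pyrimidines, was higher in all 4 lines, by 1.13 in NCI-H526, 1.02 in NCI-H1048, 0.42 in NCI-H929 and 0.33 in MM1.S (limma, all called). TK2, the mitochondrial thymidine kinase, was higher in NCI-H929 (1.44), MM1.S (0.58) and NCI-H526 (0.52), while cytosolic TK1 was lower in both myeloma lines. RRM2B, the small subunit that serves mitochondrial DNA and repair, was higher in NCI-H929 (0.69) and MM1.S (0.34) and lower in NCI-H526 (-0.52) and NCI-H1048 (-0.62), opposite in sign to RRM2 in the myeloma lines.

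SLC19A1, the reduced folate carrier, went from 60.2 and 58.1 in DMSO to 4.45 and 5.12 with AU-15330 in MM1.S (-3.50) and from 41.2 and 42.7 to 9.02 and 6.91 in NCI-H929 (-2.34). SLC25A32, the mitochondrial folate carrier, fell by 1.84 on the log2 scale in NCI-H929 and by 1.72 in MM1.S. The purine salvage enzymes PNP and HPRT1 were lower in all 4 lines, PNP by -0.60, -0.78, -1.73 and -2.24 and HPRT1 by -0.14, -0.37, -1.23 and -2.12, each in the order NCI-H526, NCI-H1048, NCI-H929 and MM1.S.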
